A study of Mus musculus with 12 samples.

Results

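The interaction of an Esrra and an Hcfc1 knockdown was measured in Hepa1-6 cells, a mouse hepatoma line, from all 12 of the 12 RNA sequencing libraries of the study. The libraries form a 2 by 2 design of 4 groups with 3 libraries each. The siERRa+siHCFC1 group received siRNA pools against Esrra and Hcfc1 together (the combined knockdown), the siERRa group the pool against Esrra, the siHCFC1 group the pool against Hcfc1, and the siC group a pool of scrambled siRNAs. All groups carry the wild-type genome of the line. In each group 400000 cells were transfected with 100 nM siRNA, transfected again after 48 h (200 nM in total) and collected at 96 h. How the dose was shared between the pools in the combined knockdown is not stated. Libraries were grouped by label alone, with earlier results of these data known. For each gene the quantity examined was the departure, which is the log2 change of siERRa+siHCFC1 against siERRa minus the log2 change of siHCFC1 against siC. A departure of 0 means that the combined knockdown changed the gene by the sum of the single log2 changes. A positive one means a higher level than that sum, and a negative one a lower level.

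Esrra encodes ERRα, an orphan nuclear receptor that binds DNA at its own response elements and controls genes of mitochondrial respiration, the citric acid cycle and lipid use in liver. Hcfc1 encodes host cell factor C1, a chromatin coregulator that does not bind DNA itself and is brought to promoters by partners such as THAP11, ZNF143, E2F and GABP proteins, where it recruits histone modifying enzymes. The study set out to examine how the pair act together in liver cells. In a 2 by 2 design, the interaction asks whether the effect of losing one factor depends on the presence of the other.

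The libraries held 21370449 to 33197421 reads counted in genes. Levels are given as CPM, counts relative to the library size after scaling for library composition. Mitochondrially encoded genes took 2.37 to 14.5% of the counts, and the departure of that share was -1.19, 0.60 and -0.16 percentage points in library numbers 1, 2 and 3. Of 10 hepatocyte markers, 7 were detected and their sum was 4031 to 9353 CPM over the 12 libraries. The summed level of 5 endothelial markers stayed at or below 1.54 CPM and that of 4 lymphocyte markers at or below 0.495 CPM. The 5 stellate cell and fibroblast markers, of which 2 were detected, summed to 2553 to 6865 CPM. Col1a1, a detected one, held 1.87 to 4.48 CPM of that sum, so nearly all of it was the other detected marker. The 5 cholangiocyte markers summed to 913 to 2619 CPM, with Krt19 at 3.25 to 13.7 CPM. The labels do not say whether the 3 libraries of a group come from separate cultures, and the p-values rest on a spread between libraries that may be technical. The kit keeps no strand information, and reads from a gene and an antisense partner that overlaps it cannot be told apart. In bulk RNA, a change in the number of cells of a kind and a change of RNA per cell cannot be told apart.

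Esrra fell in both comparisons that its pool allows, while Hcfc1 fell in siHCFC1 against siC and its change in siERRa+siHCFC1 against siERRa did not pass the test. Esrra had 18.9, 20.5 and 12.5 CPM in the siERRa+siHCFC1 libraries, 8.65, 16.9 and 10.5 CPM in siERRa, 46.4, 64.5 and 59.1 CPM in siHCFC1 and 46.4, 42.7 and 52.1 CPM in siC. All 6 libraries that received the Esrra pool were below all 6 that did not. The fitted log2 change was -1.71 (adjusted p = 1.00e-04) in siERRa+siHCFC1 against siHCFC1 and -2.02 (adjusted p = 5.70e-06) in siERRa against siC. Hcfc1 had 119, 131 and 88.7 CPM in the siERRa+siHCFC1 libraries, 182, 145 and 109 CPM in siERRa, 96.5, 126 and 66.2 CPM in siHCFC1 and 179, 142 and 198 CPM in siC. The siHCFC1 libraries were all below the siC libraries, but the siERRa+siHCFC1 libraries overlapped the siERRa libraries. The log2 change of Hcfc1 was -0.36 (adjusted p = 0.177) in siERRa+siHCFC1 against siERRa, with a 95% interval of -0.74 to 0.02, and -0.90 (adjusted p = 0.00118) in siHCFC1 against siC. Against siC it was -0.66 (adjusted p = 0.0107) in siERRa+siHCFC1, which passed, and -0.30 (adjusted p = 0.350) in siERRa, which did not. The departure of Hcfc1 itself was 0.54 ± 0.25 (SE; adjusted p = 0.501) with an unadjusted 95% interval of 0.01 to 1.08, and within library numbers 1, 2 and 3 it was 0.28, 0.03 and 1.27. Esrra had a departure of 0.30 ± 0.28 (SE; adjusted p = 0.797) with a 95% interval of -0.28 to 0.89. Neither departure passed the test, and that of Esrra changed sign to -0.12 (adjusted p = 0.978) without library number 1. Whether the residual Hcfc1 level has a part in the departures described next was not tested.

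The departure passed the test (edgeR quasi-likelihood, Benjamini-Hochberg adjusted p below 0.05 over all genes, library number as a block) in 23 of 15965 genes (0.144%). The combined level was higher than the sum of the single changes in 8 genes (0.0501%) and lower in 15 (0.094%). At an unadjusted p below 0.05 there were 1557 genes (9.75%), with 831 higher genes (5.21%) and 726 lower genes (4.55%). The departures of the 23 genes were between 0.74 and 3.17 in size. Over all genes tested the median departure was 0.03, with 5th and 95th percentiles of -1.53 and 1.76. Most of the 23 lay between these percentiles, so they do not stand out by size alone. The sign was the same within all 3 library numbers for 23 of the 23. Of all genes, 14.1% were below 0 and 16.0% above 0 in all 3. On the linear CPM scale the departure kept its sign in 23 of 23. Both counts use the libraries of the test itself, which favours genes whose departure agrees between numbers. They describe the genes and are no separate evidence.

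The call depends on the block. Without it, 0 genes passed by the same test (439 at an unadjusted p below 0.05, smallest adjusted p 0.42), and with library number as a random effect (limma-voom) 1 gene passed. Leaving out whole library number 1 left 0 genes, leaving out number 2 left 1 and leaving out number 3 gave 43. Leaving out single libraries gave 12 to 53 genes. The count was 36 without siC library 1, 39 without siERRa library 1, 44 without siERRa library 3, 12 without siHCFC1 library 2, 35 without siERRa+siHCFC1 library 1 and 53 without siERRa+siHCFC1 library 3. DESeq2 with the block called 209 genes, 23 of the 23 among them. The 23 genes kept the sign of their departure under all 23 alternatives computed, and 7 of them kept the call in each of the 12 fits with 1 library left out, namely Rpl30-ps10, Gbp9, Iqgap3, Trim12c, Atp1b1, Csn3 and Cd59a. The alternatives refit the same 12 libraries or a part of them, so the kept signs are no separate evidence.

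For 21 of the 23 genes the combined change had the sign of the sum of the single changes but fell short of it (7 higher, 14 lower than the sum). For Anxa8 and Manf it lay on the other side of 0 from the sum. In 0 genes did the combined change go beyond the sum, and in 0 was the sum near 0 (under 0.25 in size). Both single log2 changes were positive in 14 of the 23 and negative in 6. The sum and the departure are computed from the same siERRa, siHCFC1 and siC libraries, so this count describes the genes and is no separate evidence. At an unadjusted p below 0.05, 1123 genes were short of the sum, 26 beyond it, 282 opposite to it and 126 had a sum near 0.

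**Figure D1:**
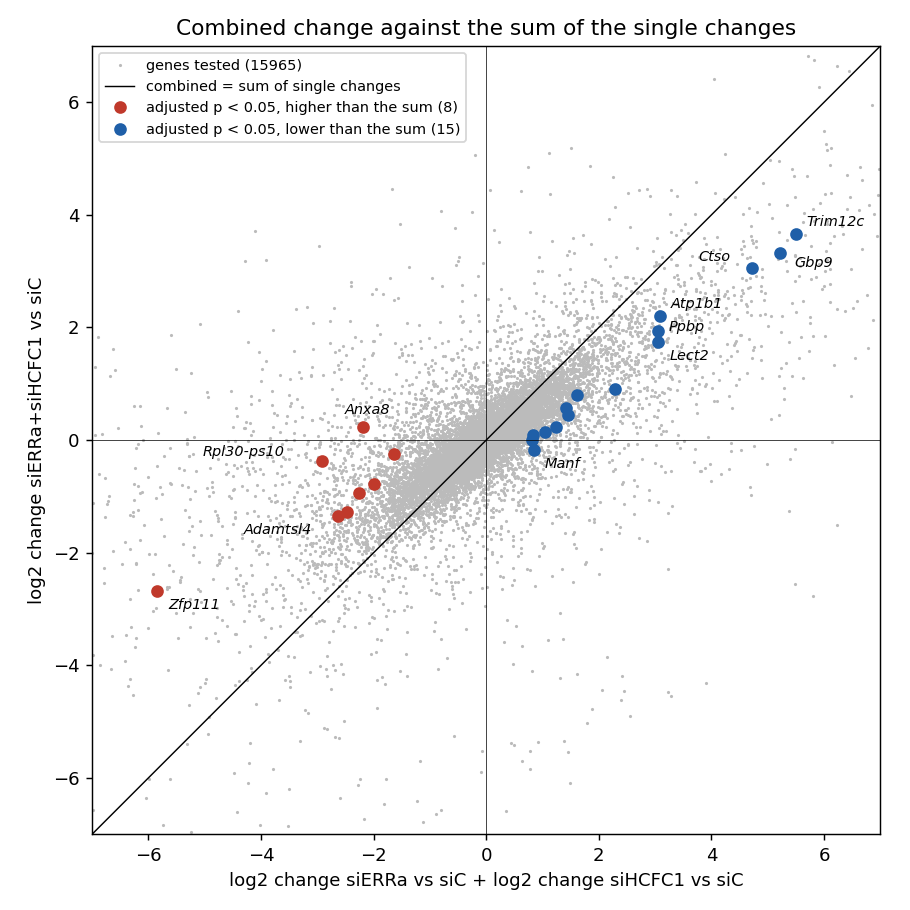
Log2 change of siERRa+siHCFC1 against siC (vertical axis) plotted against the sum of the log2 changes of siERRa and of siHCFC1 against siC (horizontal axis), 1 point per gene, with the line of equal values. The 8 genes called higher than the sum lie left of the line at negative sums and the 15 called lower lie right of it at positive sums. The axes stop at 7 on either side, which leaves 208 of the 15965 genes outside the plot, and both axes use the same siC libraries.

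Genes of the unfolded protein response, the chaperones and folding enzymes that cells make when proteins misfold in the endoplasmic reticulum, held 3 called members among 22 tested, and all 3 were lower than the sum (background 0.094%). Each of the 3 was raised by the Hcfc1 pool in siHCFC1 against siC, and in siERRa+siHCFC1 against siERRa the same pool gave no change that passed the test. Manf, a protein of the endoplasmic reticulum that is secreted under stress (chr9:106838312-106891979, minus strand; mm10, as are all gene positions here), was one of them. Manf had 120.4, 121 and 99.6 CPM in the siERRa+siHCFC1 libraries, 97.4, 181 and 113 CPM in siERRa, 184, 307 and 239 CPM in siHCFC1 and 117, 164 and 114 CPM in siC. The 3 siHCFC1 libraries lay above all 9 others, and the other 3 groups overlapped. The siHCFC1 effect on Manf was -0.15 (adjusted p = 0.524) in siERRa+siHCFC1 against siERRa and 0.88 (adjusted p = 1.12e-04) in siHCFC1 against siC, a departure of -1.03 ± 0.19 (SE; adjusted p = 0.0348). This call was lost without siERRa+siHCFC1 library 2, siERRa library 2, siHCFC1 libraries 2 or 3 or siC libraries 2 or 3 taken singly (adjusted p = 0.0564 to 0.0741). The exons of Manf overlap those of another gene over 9.25% of their length. In library number 1 the departure of Manf was -0.35, against -1.48 in number 2 and -1.25 in number 3.

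Dnajb9, a co-chaperone of the endoplasmic reticulum that works with BiP (chr12:44205559-44210326, minus strand), was raised by each single knockdown. Dnajb9 had 35.1, 36.2 and 59.7 CPM in the siERRa+siHCFC1 libraries, 38.9, 47.1 and 63.8 CPM in siERRa, 43.4, 51.7 and 73.5 CPM in siHCFC1 and 23.7, 32.02 and 39.9 CPM in siC. Within every library number the order from low to high was siC, siERRa+siHCFC1, siERRa and siHCFC1, although the groups overlapped across numbers. Its departure was -1.02 ± 0.18 (SE; adjusted p = 0.0225), and the values within numbers 1 to 3 were -1.01, -1.06 and -0.97. The call was lost without siERRa+siHCFC1 library 2 or siC library 3 taken singly (adjusted p = 0.0613 to 0.0639). Pdia3, a disulfide isomerase that folds glycoproteins together with calreticulin and calnexin (chr2:121413775-121438687, plus strand), had the same order in every number. Pdia3 had 928, 1333 and 846 CPM in the siERRa+siHCFC1 libraries, 952, 1347 and 866 CPM in siERRa, 1388, 2307 and 1170 CPM in siHCFC1 and 909, 1250 and 756 CPM in siC. The siHCFC1 effect was -0.03 (adjusted p = 0.891) with the Esrra pool and 0.71 (adjusted p = 3.40e-05) without it, a departure of -0.74 ± 0.14 (SE; adjusted p = 0.0327). The call of Pdia3 was lost without siERRa+siHCFC1 library 2, siHCFC1 library 2 or siC libraries 2 or 3 taken singly (adjusted p = 0.0583 to 0.0741).

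Hspa5, which encodes BiP, the main chaperone of this compartment, which also keeps the stress sensors inactive (chr2:34771970-34777547, plus strand), fell just outside the threshold and is named after its values were seen. Hspa5 had 2067, 2822 and 1817 CPM in the siERRa+siHCFC1 libraries, 1126, 1549 and 1192 CPM in siERRa, 3436, 6564 and 3860 CPM in siHCFC1 and 1416, 1804 and 1371 CPM in siC. All siHCFC1 libraries lay above all siERRa+siHCFC1 libraries, which in turn lay above all siERRa and siC libraries, and siERRa and siC overlapped. Its departure was -0.77 ± 0.15 (SE; adjusted p = 0.0523). Over the whole list, 21 of 22 tested members had a departure below 0. At an unadjusted p below 0.05, 15 were lower (background 4.55%) and 0 higher (5.21%). The median departure was -0.56 against 0.03 over all genes. The list medians within numbers 1, 2 and 3 were -0.34, -0.89 and -0.49. In siHCFC1 against siC, 16 of the 22 were called higher (background 11.7%), and in siERRa+siHCFC1 against siERRa 7 were (background 10.2%). The Esrra pool lowered 13 of them in siERRa+siHCFC1 against siHCFC1 (background 2.14%) and 2 in siERRa against siC (background 5.99%). The sensor genes Atf6 and Ern1 and the transcription factor gene Xbp1 had departures of -0.0042, 2.9e-05 and -0.06.

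**Figure D2:**
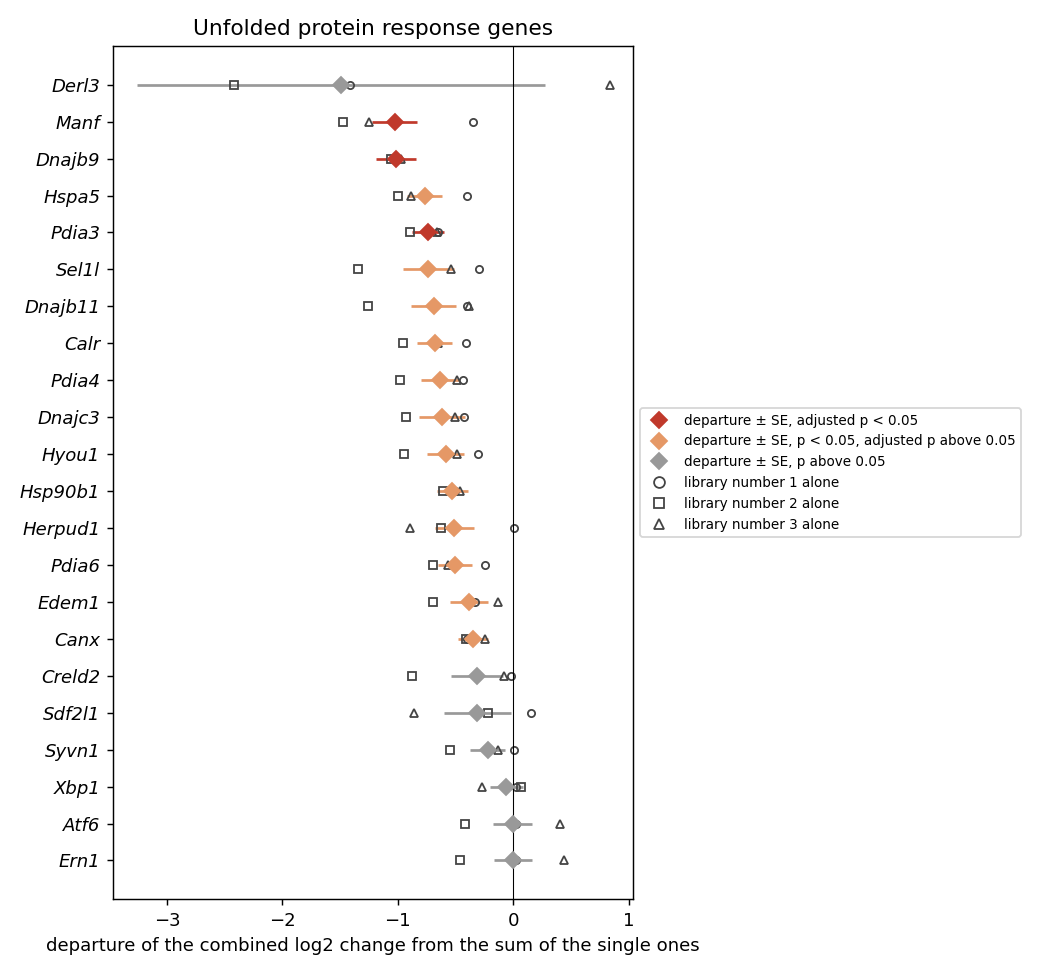
Departure (log2, horizontal axis) of the 22 tested unfolded protein response genes, with the fitted value and its SE as a diamond and the value within library numbers 1, 2 and 3 as open symbols. Members lie left of 0 except Ern1 and Atf6, which lie at 0, and the 3 called genes are Manf, Dnajb9 and Pdia3.

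Promoters of the unfolded protein response list (250 bases before to 50 after the start, RefSeq, GRCm38.p6) were searched on both strands for the endoplasmic reticulum stress element. This element is CCAAT and CCACG with any 9 bases between them, to which ATF6 and its partner NF-Y are known to bind. The element was chosen with the values of the list known. It was present in 9 of the 19 list members with a promoter (47.4%), against 24 of 10624 tested genes (0.226%): Calr, Canx, Creld2, Derl3, Dnajc3, Hsp90b1, Hspa5, Pdia6 and Syvn1. None of these 9 is a called gene, and the element was found in 0 of 5 genes called higher and 0 of 11 called lower, Dnajb9 and Pdia3 among them. Both the list and the element were drawn from what is known of this response, so a high share in the list was built in. That share does not bear on the departures, and a part of the element in them was not tested. The promoter of Manf was not analysed here. The promoter of Hspa5, the gene of the main chaperone, is shown with the match in capitals.
Hspa5, chr2:34771840-34772139, plus strand: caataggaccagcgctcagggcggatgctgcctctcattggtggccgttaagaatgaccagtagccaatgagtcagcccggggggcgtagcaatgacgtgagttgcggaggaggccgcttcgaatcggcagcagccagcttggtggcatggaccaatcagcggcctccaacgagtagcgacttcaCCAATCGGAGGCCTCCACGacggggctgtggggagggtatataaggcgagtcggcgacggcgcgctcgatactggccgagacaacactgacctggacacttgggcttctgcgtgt

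Genes of the interferon response, which cells switch on against viruses and foreign nucleic acid, held 3 called members among 40 tested, and all 3 were lower than the sum (background 0.094%): Gbp9, Trim12c and B2m. Each of them was raised by both single knockdowns. Gbp9, an interferon-induced GTPase of the guanylate-binding family (chr5:105077630-105139539, minus strand), was low in control cells. Gbp9 had 18.5, 47.05 and 21.8 CPM in the siERRa+siHCFC1 libraries, 9.49, 14.1 and 6.97 CPM in siERRa, 23.6, 43.3 and 20.6 CPM in siHCFC1 and 2.78, 4.02 and 1.72 CPM in siC. The siERRa+siHCFC1 and siHCFC1 libraries overlapped, all of them lay above the siERRa libraries, and those lay above the siC libraries. The log2 change against siC was 3.32 (adjusted p = 4.19e-09) in siERRa+siHCFC1, 1.86 (adjusted p = 1.30e-05) in siERRa and 3.35 (adjusted p = 4.39e-09) in siHCFC1. The departure was -1.89 ± 0.27 (SE; adjusted p = 0.0119), and it was -1.95, -1.57 and -1.67 within the 3 library numbers.

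Trim12c, a tripartite motif protein related to the antiviral factor TRIM5 (chr7:104338754-104353362, minus strand), followed the same order. Trim12c had 26.0, 39.2 and 37.3 CPM in the siERRa+siHCFC1 libraries, 9.65, 11.7 and 8.49 CPM in siERRa, 33.2, 40.8 and 25.3 CPM in siHCFC1 and 2.61, 2.39 and 3.002 CPM in siC. Again siERRa+siHCFC1 and siHCFC1 overlapped above siERRa, and siC was lowest in every number. Its departure was -1.83 ± 0.29 (SE; adjusted p = 0.0166). Trim12c shares 48.1% of its 31-base words with other genes, Trim5 and Trim12a among them, so its counts are uncertain. Its neighbour Trim12a, named after its values were seen, had a departure of -1.38 ± 0.28 (SE; adjusted p = 0.0523). B2m, the light chain of the class I antigen presenting complex (chr2:122147686-122153083, plus strand), was abundant in all groups. B2m had 1921, 1949 and 1590 CPM in the siERRa+siHCFC1 libraries, 1527, 2329 and 1589 CPM in siERRa, 2132, 2694 and 1933 CPM in siHCFC1 and 1198, 1567 and 972 CPM in siC. The siC libraries lay below all siERRa+siHCFC1 and siHCFC1 libraries, while siERRa overlapped each of the other groups. The departure of B2m was -0.84 ± 0.15 (SE; adjusted p = 0.0292), and its call was lost without siERRa+siHCFC1 library 2 or siC library 3 taken singly (adjusted p = 0.0632 to 0.0706).

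Over the interferon list, 8 of 40 members were lower than the sum at an unadjusted p below 0.05 (background 4.55%) and 0 were higher (5.21%). The median departure was -0.31. The list medians within the library numbers were -0.32, -0.19 and -0.19, and the fitted median was -0.17 without siERRa library 3. In siERRa+siHCFC1 against siERRa 21 members were called higher (background 10.2%), and in siHCFC1 against siC 26 were (11.7%). After the Esrra pool, 0 members were called higher in siERRa+siHCFC1 against siHCFC1 (background 1.38%) and 3 lower (2.14%). In siERRa against siC 11 were called higher (4.19%). Gbp4, a close relative of Gbp9, averaged 16.3 ± 8.34 CPM in siERRa+siHCFC1, 4.26 ± 2.56 CPM in siERRa, 12.3 ± 7.32 CPM in siHCFC1 and 0.967 ± 0.607 CPM in siC (SD, n = 3 each), with a departure of -1.69 (adjusted p = 0.0979). Macrophage markers, of which 2 of 5 were detected, summed to 30.2 to 50.6 CPM in siERRa+siHCFC1, 44.6 to 65.2 in siERRa, 38.7 to 61.8 in siHCFC1 and 69.0 to 93.8 in siC, and were highest in siC. Most of this sum was Cd68, at 27.9 to 93.7 CPM over the libraries, so the order mainly describes that gene. The part of these markers in the result was not tested.

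Among lysosomal genes, Ctso, which encodes the protease cathepsin O (chr3:81932601-81956725, plus strand), had the pattern of Gbp9. Ctso had 24.4, 38.04 and 30.03 CPM in the siERRa+siHCFC1 libraries, 8.07, 12.99 and 8.15 CPM in siERRa, 34.3, 57.3 and 26.7 CPM in siHCFC1 and 4.14, 5.2 and 2.12 CPM in siC. The siERRa+siHCFC1 and siHCFC1 libraries overlapped, above siERRa and, lowest, siC. The departure was -1.66 ± 0.28 (SE; adjusted p = 0.0214), and the call was lost without siHCFC1 library 2 (adjusted p = 0.0518). Of 37 tested lysosome and autophagy genes, Ctso was the called one, 12 were lower at an unadjusted p below 0.05 (background 4.55%) and 2 were higher (5.21%), and the median was -0.22, or -0.15 without siERRa library 3. Dram2, a membrane protein of the lysosome linked to autophagy, was raised by each single knockdown and averaged close to siC in the combined one. It averaged 76.7 ± 17.6 CPM in siERRa+siHCFC1, 105 ± 35.3 CPM in siERRa, 99.95 ± 24.7 CPM in siHCFC1 and 76.8 ± 20.4 CPM in siC (SD, n = 3 each), with a departure of -0.81 ± 0.16 (SE; adjusted p = 0.0489). Its call had the highest adjusted p of the 23 and was lost without siERRa+siHCFC1 libraries 1 or 2, siERRa library 2, siHCFC1 libraries 1, 2 or 3 or siC libraries 2 or 3 taken singly (adjusted p = 0.0583 to 0.129).

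Ppbp, a chemokine precursor stored in platelets (chr5:90768518-90770063, plus strand), was raised by each pool given alone, with log2 changes against siC of 2.25 in siERRa and 0.80 in siHCFC1. Ppbp had 178, 245 and 188 CPM in the siERRa+siHCFC1 libraries, 191, 391 and 203 CPM in siERRa, 103, 107 and 67.9 CPM in siHCFC1 and 47.9, 75.8 and 39.8 CPM in siC. The siERRa+siHCFC1 and siERRa libraries overlapped and lay above all siHCFC1 and siC libraries. The siERRa effect on Ppbp was 1.14 (adjusted p = 2.20e-04) in siERRa+siHCFC1 against siHCFC1 and 2.25 (adjusted p = 7.20e-08) in siERRa against siC, a departure of -1.10 ± 0.21 (SE; adjusted p = 0.0369). The call was lost without siERRa+siHCFC1 library 2, siERRa library 2, siHCFC1 library 1 or siC library 3 taken singly (adjusted p = 0.0632 to 0.0846). Cd59a, an inhibitor of the complement membrane attack complex (chr2:104095801-104115354, plus strand), was low in control cells. Cd59a had 17.1, 29.2 and 20.99 CPM in the siERRa+siHCFC1 libraries, 20.6, 39.5 and 20.1 CPM in siERRa, 20.1, 36.9 and 24.8 CPM in siHCFC1 and 11.1, 15.8 and 9.12 CPM in siC. The siC libraries lay below all 9 others, which overlapped. Its departure was -1.39 ± 0.23 (SE; adjusted p = 0.0214).

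Lect2, a liver-secreted protein also called leukocyte cell-derived chemotaxin (chr13:56542464-56548502, minus strand), had its siC libraries below all others too. Lect2 had 58.7, 85.5 and 67.3 CPM in the siERRa+siHCFC1 libraries, 41.5, 80.5 and 32.2 CPM in siERRa, 64.1, 126 and 56.7 CPM in siHCFC1 and 21.4, 31.3 and 13.6 CPM in siC. The departure was -1.31 ± 0.23 (SE; adjusted p = 0.0225), and the call was lost without siHCFC1 library 2 (adjusted p = 0.0518). Atp1b1, the beta subunit of the sodium pump (chr1:164437109-164458355, minus strand), differed from these in that the combined level was the highest. Atp1b1 had 183, 318 and 179 CPM in the siERRa+siHCFC1 libraries, 122, 177 and 111 CPM in siERRa, 129.6, 192 and 114 CPM in siHCFC1 and 44.3, 63.2 and 37.8 CPM in siC. In every number siERRa+siHCFC1 was highest and siC lowest. The log2 change against siC was 2.21 in siERRa+siHCFC1, 1.504 in siERRa and 1.58 in siHCFC1, so both knockdowns added to each other but by less than their sum, with a departure of -0.87 ± 0.14 (SE; adjusted p = 0.0214). The exons of Atp1b1 overlap those of Nme7 over 18.7% of their length. Csn3, a casein (chr5:87925579-87932665, plus strand), had a departure of -1.004 ± 0.17 (SE; adjusted p = 0.0214), Nucb2, a calcium-binding precursor of nesfatin-1, one of -0.90 ± 0.17 (SE; adjusted p = 0.031), and Enpp2, the enzyme autotaxin that makes lysophosphatidic acid, one of -0.81 ± 0.16 (SE; adjusted p = 0.039). Csn3 averaged 164 ± 15.4 CPM in siERRa+siHCFC1, 204 ± 66.4 CPM in siERRa, 241 ± 73.1 CPM in siHCFC1 and 144 ± 45.5 CPM in siC (SD, n = 3 each). Nucb2 averaged 64.4 ± 16.2 CPM in siERRa+siHCFC1, 71.9 ± 16.7 CPM in siERRa, 100.4 ± 38.5 CPM in siHCFC1 and 59.1 ± 18.6 CPM in siC. Enpp2 averaged 399.6 ± 118 CPM in siERRa+siHCFC1, 404 ± 124 CPM in siERRa, 418 ± 173 CPM in siHCFC1 and 234 ± 81.2 CPM in siC. The groups of these 3 genes overlapped across library numbers. The call of Nucb2 was lost without siERRa+siHCFC1 library 2, siHCFC1 libraries 1 or 2 or siC libraries 1 or 2 taken singly (adjusted p = 0.0547 to 0.0741). That of Enpp2 was lost without siERRa+siHCFC1 libraries 1 or 2, siERRa library 1, siHCFC1 libraries 1 or 2 or siC libraries 1, 2 or 3 taken singly (adjusted p = 0.0613 to 0.0982).

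**Figure D3:**
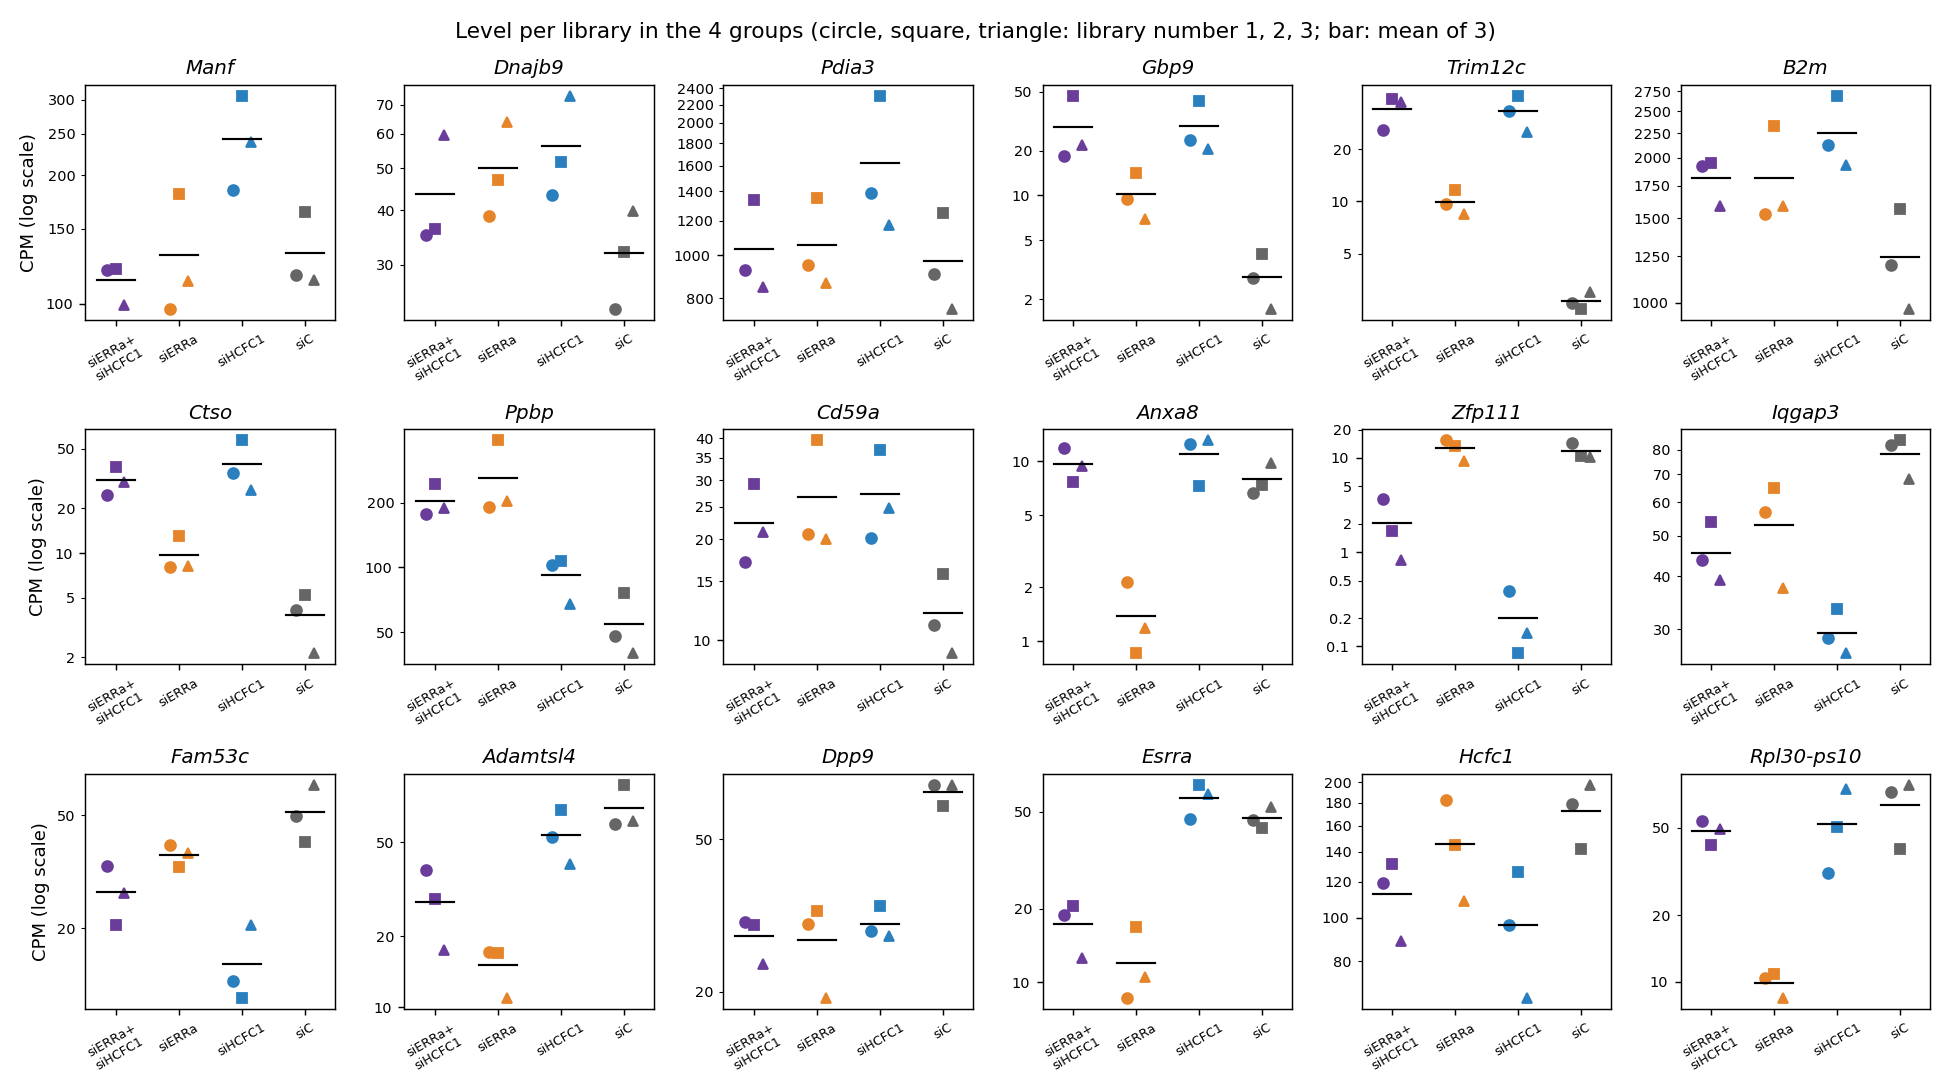
Level of 18 genes in each library (CPM, log scale) in the order siERRa+siHCFC1, siERRa, siHCFC1 and siC, with the library number as the symbol and the mean of 3 as a bar. Gbp9, Trim12c and Ctso are at like levels in siERRa+siHCFC1 and siHCFC1 and lowest in siC, and Anxa8 and Rpl30-ps10 are low in siERRa and not in siERRa+siHCFC1.

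Of the 8 genes above the sum, the zinc finger gene Zfp111 had the largest departure. Zfp111 (chr7:24193947-24211443, minus strand) almost vanished after the Hcfc1 knockdown alone and kept part of its level when the Esrra pool was present. Zfp111 had 3.69, 1.66 and 0.832 CPM in the siERRa+siHCFC1 libraries, 15.4, 13.2 and 9.35 CPM in siERRa, 0.384, 0.0843 and 0.137 CPM in siHCFC1 and 14.4, 10.5 and 10.2 CPM in siC. The siHCFC1 libraries held 8, 2 and 4 reads of it and the siERRa+siHCFC1 libraries 95, 34 and 25, so the fitted change of siHCFC1 rests on few reads. The siERRa+siHCFC1 libraries lay above all siHCFC1 libraries and below all siERRa and siC libraries, which overlapped. The siHCFC1 effect was -2.78 (adjusted p = 1.52e-05) in siERRa+siHCFC1 against siERRa and -5.94 (adjusted p = 2.86e-08) in siHCFC1 against siC. The departure was 3.17 ± 0.54 (SE; adjusted p = 0.0214), and the call was lost without siHCFC1 library 2 (adjusted p = 0.0518). Iqgap3, a scaffold protein of dividing cells (chr3:88081971-88121048, plus strand), was lowered by both knockdowns. Iqgap3 had 43.7, 53.8 and 39.1 CPM in the siERRa+siHCFC1 libraries, 57.01, 64.8 and 37.6 CPM in siERRa, 28.5, 33.5 and 26.3 CPM in siHCFC1 and 82.2, 84.3 and 68.4 CPM in siC. The siHCFC1 libraries lay below and the siC libraries above all others, and siERRa+siHCFC1 overlapped siERRa. The departure of Iqgap3 was 1.21 ± 0.18 (SE; adjusted p = 0.0134), with 1.13, 1.05 and 1.42 within the library numbers.

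Promoters of the called genes were searched on both strands for AAGGTCA (the core element of ERR proteins), TNAAGGTCA (its extended form, which contains the core) and ACTACAA (the core of the site of the HCFC1 partners THAP11 and ZNF143). AAGGTCA was found in 0 of 16 called genes with a promoter and in 4.24% of the promoters of all 10624 tested genes, and TNAAGGTCA in 0 of 16 and 1.04%. ACTACAA was found in 2 of 5 genes called higher, 0 of 11 called lower and 4.77% of all. The 2 genes are Zfp111 and Iqgap3, and their promoters are shown as those of called genes with a match, in capitals (RefSeq, GRCm38.p6). Dpp9, which also fell in siHCFC1 against siC, had no match, and the promoter of Fam53c, which did too, was not analysed here. A further start listed for Zfp111 had no match.
Zfp111, chr7:24208100-24208399, minus strand: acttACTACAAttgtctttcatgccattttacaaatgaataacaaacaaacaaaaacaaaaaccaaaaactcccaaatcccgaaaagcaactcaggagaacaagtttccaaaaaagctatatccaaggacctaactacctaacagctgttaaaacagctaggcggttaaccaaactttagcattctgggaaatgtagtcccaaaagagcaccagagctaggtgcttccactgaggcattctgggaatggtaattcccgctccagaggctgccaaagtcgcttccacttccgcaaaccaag
Iqgap3, chr3:88081801-88082100, plus strand: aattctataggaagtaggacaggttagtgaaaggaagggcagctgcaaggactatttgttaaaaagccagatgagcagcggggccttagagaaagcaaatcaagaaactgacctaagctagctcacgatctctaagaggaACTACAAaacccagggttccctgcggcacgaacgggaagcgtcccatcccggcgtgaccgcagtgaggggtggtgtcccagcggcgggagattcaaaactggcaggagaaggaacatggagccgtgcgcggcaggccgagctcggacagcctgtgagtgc

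Anxa8, a calcium-dependent phospholipid-binding protein (chr14:34085981-34100571, plus strand), fell after the Esrra knockdown alone, while its Esrra effect in the presence of the Hcfc1 pool did not pass the test. Anxa8 had 11.9, 7.65 and 9.41 CPM in the siERRa+siHCFC1 libraries, 2.12, 0.855 and 1.18 CPM in siERRa, 12.5, 7.29 and 13.1 CPM in siHCFC1 and 6.66, 7.39 and 9.8 CPM in siC. The siERRa libraries lay below all others, which overlapped. The siERRa effect was -0.17 (adjusted p = 0.84), 95% interval -0.74 to 0.41, in siERRa+siHCFC1 against siHCFC1 and -2.59 (adjusted p = 2.89e-05) in siERRa against siC, a departure of 2.42 ± 0.41 (SE; adjusted p = 0.0214). The call was lost without siHCFC1 library 2 (adjusted p = 0.0518). Adamtsl4, a secreted protein of the fibrillin matrix (chr3:95676201-95687917, minus strand), was also lowest in siERRa. Adamtsl4 had 37.97, 28.7 and 17.4 CPM in the siERRa+siHCFC1 libraries, 17.1, 17.01 and 10.96 CPM in siERRa, 52.6, 68.1 and 40.6 CPM in siHCFC1 and 59.9, 87.5 and 61.4 CPM in siC. The siERRa+siHCFC1 libraries lay above all siERRa libraries and below all siHCFC1 and siC libraries. Its departure was 1.28 ± 0.25 (SE; adjusted p = 0.039), and the call was lost without siERRa+siHCFC1 library 1, siERRa library 2, siHCFC1 libraries 1, 2 or 3 or siC libraries 2 or 3 taken singly (adjusted p = 0.0564 to 0.114).

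Dpp9, a cytosolic dipeptidyl peptidase (chr17:56186807-56218905, minus strand), was lowered by either knockdown and by both. Dpp9 had 30.4, 29.9 and 23.6 CPM in the siERRa+siHCFC1 libraries, 30.03, 32.5 and 19.3 CPM in siERRa, 28.7, 33.5 and 27.9 CPM in siHCFC1 and 69.3, 61.02 and 69.4 CPM in siC. The siC libraries lay above all others, which overlapped. The log2 change against siC was -1.27 in siERRa+siHCFC1, -1.32 in siERRa and -1.16 in siHCFC1, and the departure was 1.21 ± 0.22 (SE; adjusted p = 0.031). Fam53c was lowest in siHCFC1. Fam53c had 33.1, 20.5 and 26.7 CPM in the siERRa+siHCFC1 libraries, 39.3, 32.8 and 36.8 CPM in siERRa, 13.1, 11.4 and 20.5 CPM in siHCFC1 and 49.8, 40.4 and 64.2 CPM in siC. The siC libraries lay above all others, and each siERRa+siHCFC1 library lay below the siERRa library and above the siHCFC1 library of its number. The departure was 1.33 ± 0.24 (SE; adjusted p = 0.0292). The call of Dpp9 was lost without siERRa+siHCFC1 libraries 1 or 2, siHCFC1 libraries 1 or 2 or siC library 3 taken singly (adjusted p = 0.0521 to 0.107), and that of Fam53c without siERRa+siHCFC1 library 1, siHCFC1 libraries 1 or 2 or siC libraries 2 or 3 taken singly (adjusted p = 0.0505 to 0.0837). The remaining pair above the sum, Rpl30-ps10 and Gm12191, are copies of the ribosomal protein gene Rpl30. They share 96.8 and 100.0% of their 31-base words with other genes, Rpl30 and each other among them, so their counts are uncertain. Rpl30-ps10 had 53.5, 41.5 and 49.1 CPM in the siERRa+siHCFC1 libraries, 10.4, 10.9 and 8.46 CPM in siERRa, 31.2, 50.3 and 74.7 CPM in siHCFC1 and 72.1, 39.8 and 78.2 CPM in siC. The siERRa libraries lay below all others, with a departure of 2.54 ± 0.34 (SE; adjusted p = 0.00864) for Rpl30-ps10 and 1.40 ± 0.26 (SE; adjusted p = 0.0292) for Gm12191, whose call was lost without siERRa+siHCFC1 library 2 or siHCFC1 libraries 1 or 2 taken singly (adjusted p = 0.0544 to 0.0627). Rpl30 itself had a departure of -0.56 (adjusted p = 0.425).

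**Figure D4:**
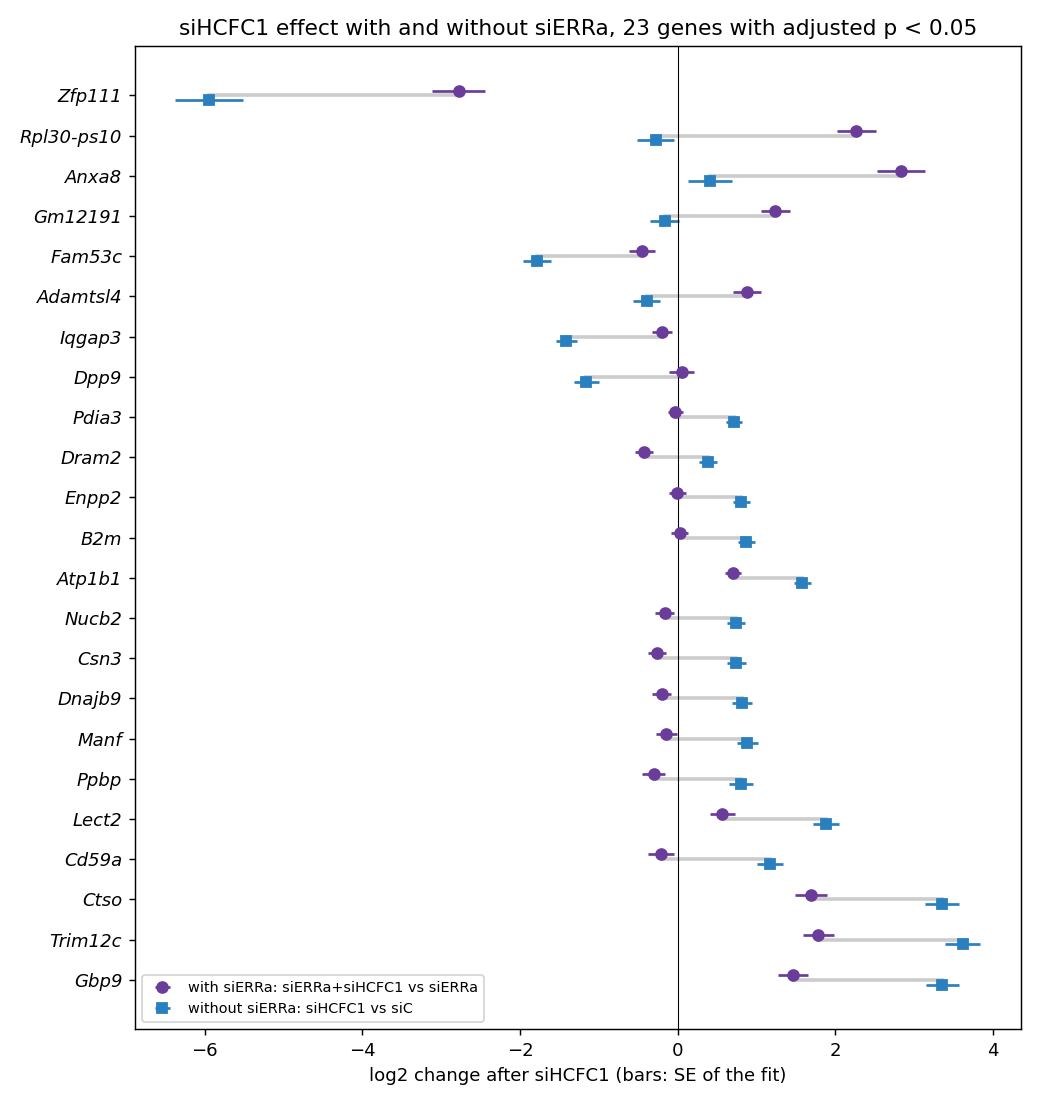
Log2 change after siHCFC1 (horizontal axis, bars are the SE of the fit) in the 23 called genes, as siERRa+siHCFC1 against siERRa (circles) and as siHCFC1 against siC (squares), ordered by departure. For Pdia3, Enpp2, B2m and Dpp9 the circles lie at 0 within their SE, and the squares do not.

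Most genes that a pool changed kept their direction in the presence of the other pool. The comparisons siERRa+siHCFC1 against siERRa and siHCFC1 against siC share no libraries. Of the 3974 genes (24.9%) called in siHCFC1 against siC, 3757 (94.5%) had the same sign in siERRa+siHCFC1 against siERRa, with a median size of 0.52 there and 0.73 where they were called. Of the 3191 genes (20%) called in siERRa+siHCFC1 against siERRa, 3066 (96.1%) had the same sign in siHCFC1 against siC, with median sizes of 0.68 where called and 0.63 in the other comparison. Since genes are picked by their size in one comparison, a smaller size in the other is built into both counts. The same-sign share over all genes was not computed, here or for the siERRa comparisons below. The departure passed the test in 19 of the 3974. Without the block, 518 genes were called in siERRa+siHCFC1 against siERRa and 1066 in siHCFC1 against siC.

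Fewer genes were called for the Esrra pool with the Hcfc1 pool than without it, with 562 genes (3.52%) in siERRa+siHCFC1 against siHCFC1 and 1625 genes (10.2%) in siERRa against siC. Without the block the counts were 1 and 70. The count for siERRa+siHCFC1 against siHCFC1 was 243 without siERRa+siHCFC1 library 2, 252 without siHCFC1 library 2, 317 without siHCFC1 library 3 and 848 without siERRa library 3, and that for siERRa against siC was 1021 without siC library 2 and 950 without siC library 3. These comparisons also have no library in common. Of the 1625, 1450 (89.2%) had the same sign in siERRa+siHCFC1 against siHCFC1, with a median size of 0.29 there and 0.64 where called. Of the 562, 518 (92.2%) had the same sign in siERRa against siC, with median sizes of 0.68 where called and 0.52 in siERRa against siC. Over all 15965 genes the log2 effects with and without the other pool had a Pearson correlation of 0.41 and a Spearman correlation of 0.54 for siHCFC1, and of 0.19 and 0.31 for siERRa. The points of these correlations share library number as a block, and low genes add noise to both.

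Some lists had departures in one direction without a called member. Among 24 tested genes of the integrated stress response, through which cells adapt to amino acid shortage, 8 were above the sum at an unadjusted p below 0.05 (background 5.21%) and 1, Atf3, below it (4.55%), with a median of 0.36. That median was 0.17 without siERRa+siHCFC1 library 2, 0.23 without siHCFC1 library 1 and 0.18 without siC library 1. The Esrra pool lowered 4 of them in siERRa+siHCFC1 against siHCFC1 (background 2.14%) and 13 in siERRa against siC (5.99%). Atf4, the central transcription factor of the response, averaged 209.7 ± 67.6 CPM in siERRa+siHCFC1, 139.7 ± 69.6 CPM in siERRa, 273 ± 139.8 CPM in siHCFC1 and 224 ± 77.2 CPM in siC (SD, n = 3 each), with a departure of 0.41 (adjusted p = 0.422). The hormone gene Gdf15 had a siERRa effect of -1.07 (adjusted p = 2.20e-04) in siERRa+siHCFC1 against siHCFC1 and -1.74 (adjusted p = 3.88e-07) in siERRa against siC. Its departure of 0.67 did not pass (adjusted p = 0.203).

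Mitotic genes were lowered by the Esrra knockdown, and 36 of 40 had a departure above 0. The median was 0.32, or 0.21 without siERRa+siHCFC1 library 3, and 9 were higher at an unadjusted p below 0.05 (background 5.21%) and 0 lower (4.55%). The Esrra pool lowered 5 of the 40 in siERRa+siHCFC1 against siHCFC1 (background 2.14%) and 32 in siERRa against siC (5.99%). The spindle checkpoint kinase gene Bub1b had a departure of 0.66 (adjusted p = 0.188). The medians within library numbers were 0.04, 0.20 and 0.57, so the size rests mostly on numbers 2 and 3. Genes of one-carbon metabolism and nucleotide synthesis had a median of 0.26, or 0.16 without siERRa+siHCFC1 library 2, with 25 of 30 above 0 and 8 higher at an unadjusted p below 0.05 (background 5.21%). In glutathione and NRF2 target genes, which protect against oxidants, 8 of 27 were higher at that limit (background 5.21%). Their median was 0.22, and it was 0.09 without siERRa+siHCFC1 library 2 and 0.10 without siERRa library 2. Of these 27, 12 were called higher in siERRa+siHCFC1 against siERRa (background 10.2%) and 9 in siHCFC1 against siC (11.7%), while 0 were called lower in siERRa+siHCFC1 against siHCFC1 (2.14%) and 9 in siERRa against siC (5.99%). Gclm, a subunit of the enzyme that makes glutathione's precursor, averaged 239.9 ± 88.7 CPM in siERRa+siHCFC1, 129 ± 39.4 CPM in siERRa, 273 ± 114 CPM in siHCFC1 and 238 ± 76.7 CPM in siC (SD, n = 3 each), with a departure of 0.71 (adjusted p = 0.077).

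In cholesterol synthesis and uptake, 24 of 30 genes had a departure below 0, and 24 were called lower in siERRa+siHCFC1 against siC (background 13.8%). The median departure was -0.25, and 5 were lower (background 4.55%) and 0 higher (5.21%) at an unadjusted p below 0.05. With the Hcfc1 pool present, the Esrra pool lowered 17 of the 30 (siERRa+siHCFC1 against siHCFC1, background 2.14%), and without it 15 (siERRa against siC, 5.99%). In siERRa+siHCFC1 against siERRa 13 were called lower (background 9.77%), and in siHCFC1 against siC 7 were (13.2%). Cyp51, a demethylase of the pathway, averaged 116 ± 30.5 CPM in siERRa+siHCFC1, 163 ± 46.05 CPM in siERRa, 172 ± 57.6 CPM in siHCFC1 and 158 ± 32.5 CPM in siC (SD, n = 3 each). Its departure of -0.57 did not pass (adjusted p = 0.174).

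Among the classical ERRα targets, list medians lay near that of all genes. They were -0.03 for 45 subunits of respiratory complex I, 0.0012 for 40 subunits of complexes II to V, 0.08 for 29 genes of the citric acid cycle, 0.02 for 21 genes of fatty acid oxidation and 0.0040 for 77 mitochondrial ribosomal proteins, against 0.03 over all genes. With 1 library left out, the medians of these 5 lists ranged from -0.15 to 0.14. In these 5 lists 0 members were called (background 0.144%), and 8 were higher (background 5.21%) and 9 lower (4.55%) at an unadjusted p below 0.05, shares close to the background. In siERRa against siC, 0, 1, 1, 0 and 0 members of the lists, in the same order, were called lower (background 5.99%). Called higher there were 5, 3, 1, 2 and 1 (4.19%). The Esrra pool alone thus lowered few of these genes, and a departure near 0 does not show that both factors act on them. For complex I the medians within the library numbers were 0.20, 0.15 and -0.43, so the near-zero median covers unlike libraries. The 13 mitochondrially encoded messenger RNAs had 12 departures below 0 and a median of -0.40, with 3 lower at an unadjusted p below 0.05 (background 4.55%). That median was -0.16 without siERRa+siHCFC1 library 1 and -0.09 without siC library 2. Against siC, 11 of the 13 were called higher in siERRa+siHCFC1 (background 11.7%), 4 in siERRa (4.19%) and 8 in siHCFC1 (11.7%). Cytosolic ribosomal protein genes had 66 of 80 departures above 0 and a median of 0.17, but the medians within the library numbers were 0.43, 0.54 and -0.44. The fitted median was -0.01 without siERRa+siHCFC1 library 1, 0.35 without siERRa+siHCFC1 library 3, 0.03 without siERRa library 2, 0.31 without siERRa library 3, 0.11 without siHCFC1 library 1 and 0.06 without siC library 2.

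**Figure D5:**
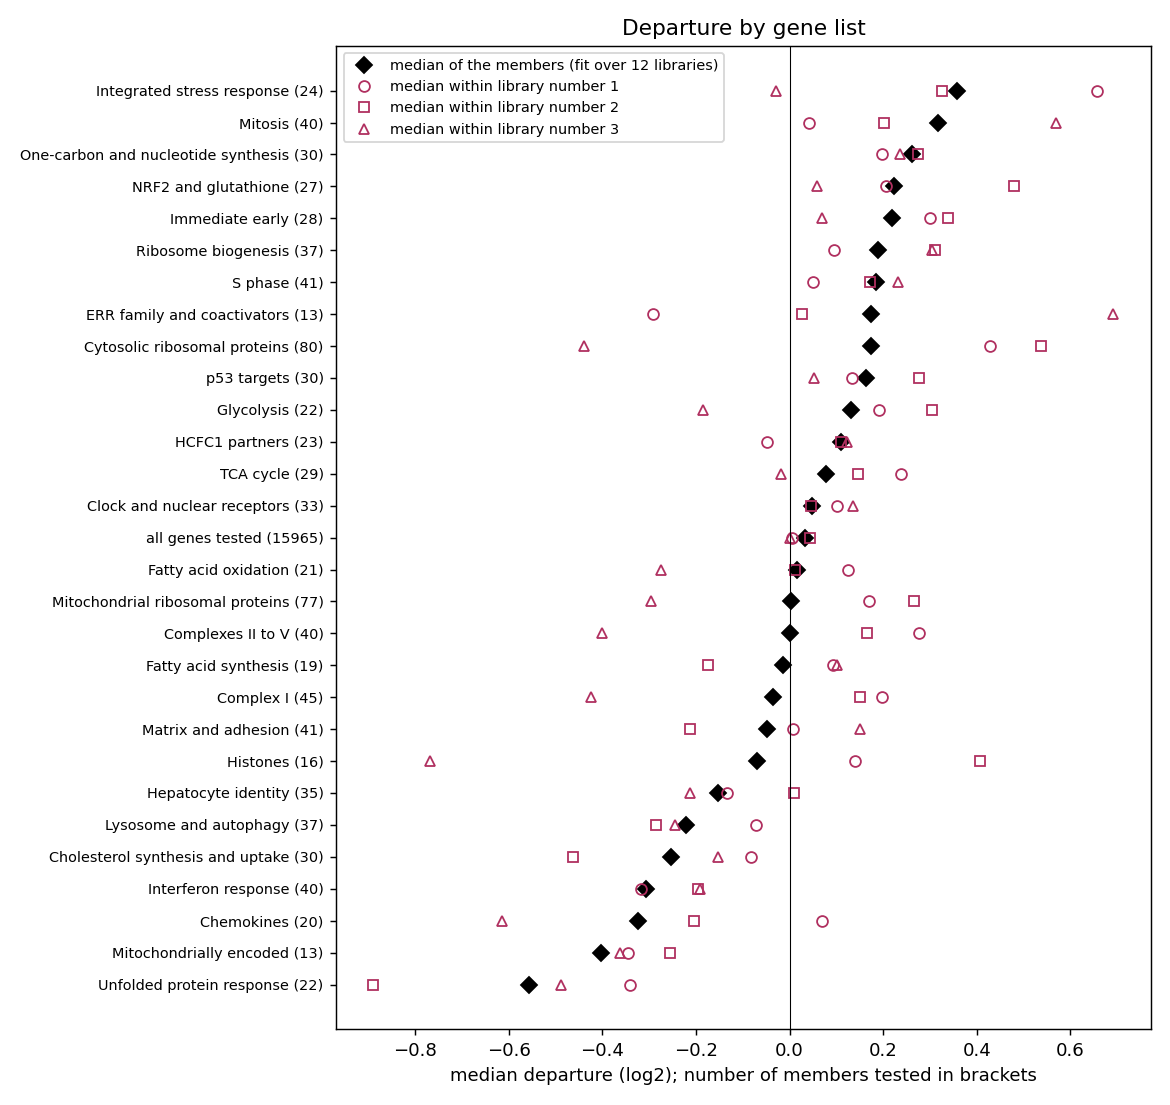
Median departure (log2, horizontal axis) of the tested members of each of 28 gene lists and of all genes tested, as fitted over 12 libraries (diamonds) and within library numbers 1, 2 and 3 (open symbols). The unfolded protein response list is lowest at -0.56 and is below 0 in all 3 numbers, and the integrated stress response list is highest at 0.36 but is at -0.03 in number 3.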

How the data were processed

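RNA of 12 Hepa1-6 libraries (4 groups of 3, by label) was analysed from the authors' deposited tables of raw read counts per gene, 1 table for each of 5 comparisons. Per the submitters' processing notes, the genome build was mm10 and the tools included featureCounts (1.5.0-p3), HISAT2 (2.0.5) and DESeq2 (1.20.0). Per the labels' protocols, libraries came from DNase-treated total RNA with the NEBNext Ultra RNA kit, which is not strand-specific. The tables were joined by gene identifier into 24326 genes. All 377781 values present in more than 1 table were equal, and 5451 blanks, from genes a table omits, were set to 0. A further 72 per-sample columns were not used.

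Counts of 15965 genes that passed edgeR's filterByExpr were scaled by TMM and fitted with edgeR 4.0.16 (R 4.3.3) as 4 group means plus library number, by the quasi-likelihood test, two-sided, with Benjamini-Hochberg adjustment over all genes and 6 residual degrees of freedom. Library numbers were taken to pair the samples. In 18 pairs with the same number, deviations from group means correlated at 0.108 to 0.635, and in 36 pairs with different numbers at -0.610 to 0.181 (12720 genes). Pairs within number 1 were at 0.108 to 0.273 and those within numbers 2 and 3 at 0.39 to 0.635. The pairing of number 1 was thus weak, and its lowest value lay below the highest for different numbers. Departures within a number use log2(CPM + 0.5) of its 4 libraries. The departure as a contrast was checked on simulated counts. None of the 12 pairs of libraries within a group agreed within sampling noise. With at least 21370449 counts per library, the 95% Wilson interval of the mitochondrial share is at most 0.0288 points wide, which covers counting error only.

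The members, the 28 gene lists and the tests were chosen with earlier results of these data known. Genes were named if they were Esrra or Hcfc1, among the 10 largest departures in each direction that were called, had one sign in all 3 numbers, at least 5 CPM in their highest group and no predicted or pseudogene name, or were the 2 best called members of a list or class. The rule named 17 called genes. The other 6 (Rpl30-ps10, Atp1b1, B2m, Gm12191, Enpp2 and Dram2) and Hspa5, Trim12a and Gapdh were named after their values were seen, as were list members without a call. Genes sharing over 20% of their 31-base words with others are given as uncertain. Alternatives were no block, a random effect for number (limma 3.58.1), DESeq2 1.42.0, RLE scaling, no mitochondrial genes, filters, a robust fit and left-out libraries.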

Additional observations from a re-analysis of the deposited data

Results flagged for a closer look

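The effect of one knockdown differed with the presence of the other, by the test of the departure itself, in 23 genes. Above the sum of the single log2 changes, the departures were 3.17 for Zfp111, 2.54 for Rpl30-ps10, 2.42 for Anxa8, 1.40 for Gm12191, 1.33 for Fam53c, 1.28 for Adamtsl4, and 1.21 for Iqgap3 and for Dpp9. Below the sum, they were -1.89 for Gbp9, -1.83 for Trim12c, -1.66 for Ctso, -1.39 for Cd59a, -1.31 for Lect2, -1.10 for Ppbp, -1.03 for Manf, -1.02 for Dnajb9 and -1.004 for Csn3. Smaller ones were -0.90 for Nucb2, -0.87 for Atp1b1, -0.84 for B2m, -0.81 for Enpp2, -0.81 for Dram2 and -0.74 for Pdia3. The groups hold 3 libraries each, too few to test a single library as an outlier.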

How the results depend on the processing

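Called genes for the interaction numbered 23 (8 higher, 15 lower; 21 short of the sum). Without the replicate block there were 0 (0 and 0; 0), and siERRa against siC gave 70, siHCFC1 against siC 1066, siERRa+siHCFC1 against siC 1100, siERRa+siHCFC1 against siERRa 518 and siERRa+siHCFC1 against siHCFC1 1 gene, against 1625, 3974, 4067, 3191 and 562 with it. With library number as a random effect there was 1 (1 and 0; 1), and 219 in siERRa+siHCFC1 against siHCFC1. DESeq2 gave 209 (57 and 152; 172) and 936 in that comparison, and no filter on low counts 204 (70 and 134; 170) and 897. RLE size factors gave 37 (8 and 29; 33), at least 50 counts in 3 libraries 37 (9 and 28; 33), a robust fit 35 (10 and 25; 31) and leaving out mitochondrial genes 24. With libraries or library numbers left out, the ranges were 0 to 53 for the interaction, 0 to 20 higher, 0 to 33 lower and 0 to 48 short of the sum. They were 761 to 1850 for siERRa against siC, 2495 to 4396 for siHCFC1 against siC, 2537 to 4490 for siERRa+siHCFC1 against siC, 1904 to 3316 for siERRa+siHCFC1 against siERRa and 94 to 848 for siERRa+siHCFC1 against siHCFC1. The Esrra departure ranged over -0.12 to 0.62, with the reversal to -0.12 without replicate 1, and that of Hcfc1 over 0.13 to 0.79. The cause of these shifts was not tested. Of the 23 called genes, 0 reversed under the 23 alternatives, which refit the same libraries or a part of them. At this depth and with 3 libraries a group, the smallest departure called was 0.74 in size.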

Other observations

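Genes of hepatocyte identity had departures on both sides, with 4 of 35 above the sum (background 5.21%) and 8 below it (4.55%) at an unadjusted p below 0.05. The median was -0.15, and with 1 library left out it ranged from -0.32 without siERRa library 2 to -0.14. It was also over 1.5 times larger without siERRa+siHCFC1 library 1 (-0.28), 2 (-0.27) or 3 (-0.25), siHCFC1 library 2 (-0.24) or 3 (-0.25), or siC library 1 (-0.25), 2 (-0.24) or 3 (-0.28). Among 23 partners of HCFC1, Myc averaged 145 ± 28.6 CPM in siERRa+siHCFC1, 95.3 ± 15.2 CPM in siERRa, 165 ± 41.1 CPM in siHCFC1 and 187 ± 26.2 CPM in siC (SD, n = 3 each), with a departure of 0.81 (adjusted p = 0.082).

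Gapdh, a glycolytic enzyme often used as a loading control, varied widely between libraries. Gapdh had 1088, 172 and 70.1 CPM in the siERRa+siHCFC1 libraries, 657, 568 and 1350 CPM in siERRa, 848, 137 and 932 CPM in siHCFC1 and 62.3, 115 and 82.5 CPM in siC. All siERRa and siHCFC1 libraries lay above the siC libraries, and the siERRa+siHCFC1 libraries overlapped siC. The departure of Gapdh was -3.75 ± 0.95 (SE; adjusted p = 0.119), and 28.1% of its 31-base words occur in other genes, so its counts are uncertain.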
